A study of Mus musculus with 16 samples.

Results

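Srebf2, Insig1, Hmgcs1, Idi1, Fdft1, Sqle and Lss are genes of sterol synthesis and its control that SREBP2, the transcription factor encoded by Srebf2, is known to regulate. The 7 were taken as a list out of the 24497 genes measured in C2C12, a line of mouse muscle precursor cells that divide in growth medium and fuse into muscle fibres once switched to differentiation medium. The rule of the list uses no measured value, but the members were chosen with earlier results of these data known. Estimated counts and TPM (relative transcript abundance, a unit that corrects for length) were summed over the transcripts of each symbol. All 7 were among the 14972 genes that passed the filter on low counts, with between 1765 and 66814 counts in every library. No lipoprotein receptor is among the 7, so the list holds synthesis and its control, while uptake is described through other genes.

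Animal cells make cholesterol from acetyl-CoA and adjust the pathway through SREBP2. SREBP2 is held in the membrane of the endoplasmic reticulum with its escort SCAP, and INSIG1 retains the complex there when sterols are plentiful. When sterols run low, the complex moves to the Golgi, the proteases MBTPS1 and MBTPS2 release the active factor, and genes of sterol synthesis are transcribed, Srebf2 and Insig1 among them. Myoblasts that fuse into fibres build large plasma membranes, of which cholesterol is a main lipid.

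Poly(A) RNA was sequenced from 16 libraries in 8 groups of 2. The groups were MYOD-/- cells with a vector for spliced MUNC, a noncoding RNA, MYOD-/- cells with an empty vector (EV), WT cells with the MUNC vector and WT cells with EV, each in differentiation medium (DM) and in growth medium (GM). Per the labels' protocols both vectors were stably transfected, and the MYOD-/- line came from single cells screened after CRISPR-Cas9, so clonal differences and the genotype cannot be told apart. Nothing in the labels ties the 2 replicates of a group to separate cultures. The p-values therefore reflect the spread among the libraries at hand, and that spread may be technical.

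Estimated counts summed to between 35832002 and 107732971 per library. Myod1 went against the genotype labels. In EV cells it stood at 24.4 and 33.1 CPM (DM) and 13.9 and 11.9 CPM (GM) in the MYOD-/- labelled libraries, against 0.143 and 0.0136 CPM (DM) and 0.291 and 0.0191 CPM (GM) in those labelled WT. The lines are therefore called MYOD-/- labelled and WT-labelled, and every direction between them follows the labels. In WT-labelled cells Myod1 was higher with MUNC than with EV in both media (adjusted p below 0.05, edgeR). In MUNC cells it was higher in the MYOD-/- labelled libraries at that threshold in DM, but did not pass in GM. MUNC, listed as Gm45923, reached 43.0 to 132 CPM in the MYOD-/- labelled MUNC libraries and 1820 to 2670 CPM in the WT-labelled MUNC libraries, and 1.15 to 12.4 CPM in the EV libraries. Zrsr1, which encodes a splicing factor, made up at least 1.49% of the counts in each replicate 2 library and at most 0.0344% in each of replicate 1. None of 4 adipocyte markers exceeded 0.0558 TPM, and muscle genes (Myod1, Myog, Myh3, Ckm and Des) summed to between 6.0 and 206 TPM. Levels of a gene across groups are given as CPM, counts scaled to the same TMM-adjusted library size, and differences as log2 fold change ± SE from edgeR's quasi-likelihood test, with p-values adjusted by Benjamini-Hochberg over all 14972 genes. In bulk RNA, more cells expressing a gene and more RNA per cell cannot be told apart.

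Srebf2 lies at chr15:82147269-82205379 in GRCm38.p6, Insig1 at chr5:28071412-28078662, Hmgcs1 at chr13:119690351-119708260, Idi1 at chr13:8885606-8892396, Fdft1 at chr14:63145150-63181687, Sqle at chr15:59315092-59331193 and Lss at chr10:76531565-76557139. The RefSeq promoter table of GRCm38.p6 held 5 of the 7 genes, Srebf2, Insig1, Hmgcs1, Idi1 and Lss. The 250 bases before the start of Srebf2, Insig1 and Hmgcs1 are shown because these genes stand for the factor, its retention protein and the first enzyme of the list, all on the plus strand (chr15:82147019-82147268, chr5:28071162-28071411 and chr13:119690101-119690350). Capitals mark the core of a sterol regulatory element (TCACNCCAC) and NF-Y boxes (CCAAT, on the reverse strand ATTGG), both searched on both strands.
Srebf2: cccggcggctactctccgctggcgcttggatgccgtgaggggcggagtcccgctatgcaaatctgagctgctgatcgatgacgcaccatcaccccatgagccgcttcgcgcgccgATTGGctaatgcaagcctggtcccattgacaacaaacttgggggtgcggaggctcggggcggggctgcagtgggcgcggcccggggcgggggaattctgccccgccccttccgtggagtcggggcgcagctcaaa
Insig1: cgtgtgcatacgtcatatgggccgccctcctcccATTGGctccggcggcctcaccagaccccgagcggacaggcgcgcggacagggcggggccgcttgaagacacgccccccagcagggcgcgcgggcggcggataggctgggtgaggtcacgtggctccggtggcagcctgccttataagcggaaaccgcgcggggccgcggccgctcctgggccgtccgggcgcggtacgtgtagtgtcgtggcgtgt
Hmgcs1: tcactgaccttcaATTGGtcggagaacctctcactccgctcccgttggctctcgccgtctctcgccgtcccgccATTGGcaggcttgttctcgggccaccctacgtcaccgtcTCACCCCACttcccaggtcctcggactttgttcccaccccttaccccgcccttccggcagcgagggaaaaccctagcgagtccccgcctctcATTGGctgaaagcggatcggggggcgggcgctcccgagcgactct
The sterol regulatory element core occurred in the Hmgcs1 window alone among the 5, at -137 to -129 from the start, and in 1.05% of the 32851 promoter windows of the same length in the table. NF-Y boxes occurred in all 5 windows, with 3 in that of Hmgcs1, and in 33.8% of all windows. A GC box (GGGCGG) was also present in all 5 windows, against 32.7% of all. The E-box pattern CANNTG was in 4 of the 5, against 66.2% of all, and in Hmgcs1 it overlapped the NF-Y box farthest from the start. These matches describe letters in a window and not binding sites.

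On the TPM scale, which corrects for length, Hmgcs1 and Sqle led the list and Lss closed it. Mean TPM over the 16 libraries was 194.0 for Hmgcs1, 193.9 for Sqle, 162.0 for Srebf2, 142.8 for Insig1, 110.3 for Idi1, 71.15 for Fdft1 and 38.48 for Lss. Hmgcs1 and Sqle, at the top of this order, were too close to rank. The highest library exceeded the lowest by 9.07 times for Insig1, 7.07 times for Idi1 and 7.02 times for Hmgcs1, and by 2.38 times for Srebf2 (101.4 to 240.9 TPM), the narrowest span. Hmgcs1 was the sole member with more than 1 transcript in the files. Its shorter transcript carried 63.9% to 78.8% of its TPM. Idi2, the paralog of Idi1, stayed at or below 0.105 TPM in every library.

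Summed over the 7 genes, TPM was highest in the differentiating WT-labelled MUNC cells, at 1273 and 1463 in replicates 1 and 2. It was 1268 and 1380 in differentiating MYOD-/- labelled EV cells, 1008 and 1229 in differentiating MYOD-/- labelled MUNC cells, and 879.5 and 775.5 in differentiating WT-labelled EV cells. The proliferating groups held 1316 and 663.0 (WT-labelled MUNC), 831.6 and 388.1 (MYOD-/- labelled EV), 755.4 and 374.6 (MYOD-/- labelled MUNC) and 573.4 and 423.5 (WT-labelled EV). Apart from the WT-labelled MUNC line, both DM sums of a line lay above both of its GM sums. Every GM group had its replicate 1 above its replicate 2, and each GM group overlapped with the next in this order.

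**Figure D1:**
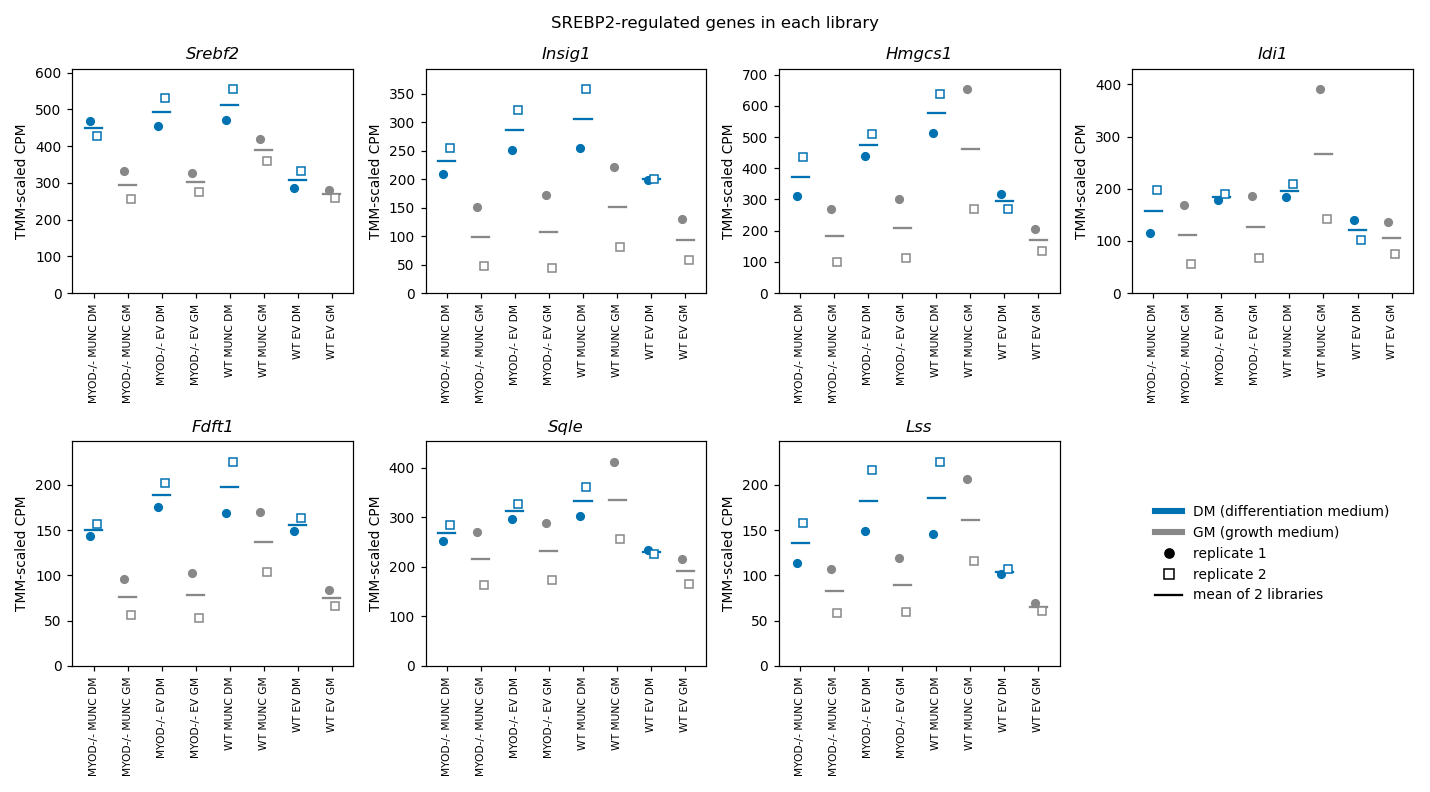
TMM-scaled CPM of the 7 genes in every library, by group (genotype label, vector, medium). Filled circles are replicate 1, open squares replicate 2 and bars the mean of the 2 libraries. In every GM group (grey) replicate 1 lies above replicate 2 for each gene, and the highest Idi1 value is 391.1 CPM in replicate 1 of the proliferating WT-labelled MUNC cells.

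Differentiation, the change of medium within a line, raised Srebf2 and Fdft1 in both MYOD-/- labelled lines and Fdft1 in the WT-labelled EV line. No other member passed in any line in the fit without a replicate term. Mki67, a proliferation marker, stood at 119.5 to 198.1 CPM in DM and 413.8 to 569.1 CPM in GM. Of 5 interferon response genes, Irf7 and Isg15 among them, 5, 5, 4 and 5 rose under differentiation in MYOD-/- labelled MUNC, MYOD-/- labelled EV, WT-labelled MUNC and WT-labelled EV cells, and of the 5 muscle genes 3, 3, 3 and 1 rose. The part of these genes in the members' changes was not tested. Fdft1 encodes squalene synthase, the first enzyme committed to sterols. In MYOD-/- labelled EV cells Fdft1 stood at 175.3 and 202.0 CPM in DM, against 102.9 and 53.35 CPM in GM. The 2 groups did not overlap, and the rise was 1.27 ± 0.34 (adjusted p = 0.0109). In MYOD-/- labelled MUNC cells it stood at 143.9 and 156.6 CPM in DM and 95.95 and 55.95 CPM in GM (0.98 ± 0.34, adjusted p = 0.0337). In WT-labelled EV cells it stood at 148.8 and 163.7 CPM in DM and 83.87 and 65.91 CPM in GM (1.06 ± 0.34, adjusted p = 0.0289). All 3 comparisons showed Fdft1 higher in both DM libraries than in both GM libraries. In WT-labelled MUNC cells the groups overlapped, with 169.1 and 225.5 CPM in DM and 169.6 and 103.4 CPM in GM (0.53 ± 0.34, adjusted p = 0.234).

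Srebf2 rose in MYOD-/- labelled EV cells to 455.8 and 532.0 CPM in DM, against 327.9 and 276.2 CPM in GM (0.71 ± 0.16, adjusted p = 0.00508). It rose in MYOD-/- labelled MUNC cells to 467.3 and 428.7 CPM in DM, against 333.3 and 257.3 CPM in GM (0.60 ± 0.16, adjusted p = 0.0118). WT-labelled MUNC cells held 470.0 and 555.4 CPM in DM and 418.5 and 358.8 CPM in GM (0.40 ± 0.16, adjusted p = 0.0736). The difference in this line missed the threshold. WT-labelled EV cells held 284.9 and 331.5 CPM in DM and 280.0 and 258.2 CPM in GM, the smallest difference of the 4 lines (0.20 ± 0.16, 95% interval -0.16 to 0.56, adjusted p = 0.378). Both DM libraries lay above both GM libraries in all 4 lines.

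Insig1, whose protein retains SREBP2 in the endoplasmic reticulum, had the largest fitted difference of the 7 and the largest error in all 4 lines, and did not pass in any. It stood at 251.3 and 321.2 CPM in DM and 171.5 and 44.23 CPM in GM in MYOD-/- labelled EV cells (1.41 ± 0.68, adjusted p = 0.117). MYOD-/- labelled MUNC cells held 209.6 and 254.5 CPM in DM and 150.3 and 48.03 CPM in GM (1.23 ± 0.68, adjusted p = 0.164). WT-labelled MUNC cells held 254.2 and 358.3 CPM in DM and 221.3 and 80.43 CPM in GM (1.02 ± 0.68, adjusted p = 0.256), and WT-labelled EV cells 199.3 and 199.6 CPM in DM and 129.3 and 58.70 CPM in GM (1.09 ± 0.68, adjusted p = 0.232). Both DM libraries of Insig1 lay above both GM libraries in each line, while its replicate 1 exceeded its replicate 2 in GM by 2.2 to 3.88 times.

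Among the other enzymes, Hmgcs1, which makes HMG-CoA at the head of the mevalonate pathway, stood at 438.0 and 510.9 CPM in DM and 301.2 and 113.6 CPM in GM in MYOD-/- labelled EV cells (1.19 ± 0.54, adjusted p = 0.0985). Its difference was 1.02 ± 0.54 in MYOD-/- labelled MUNC cells, 0.32 ± 0.54 in WT-labelled MUNC cells and 0.78 ± 0.54 in WT-labelled EV cells. Lss, lanosterol synthase, which closes the sterol rings, stood at 148.8 and 216.2 CPM in DM and 119.2 and 59.64 CPM in GM in MYOD-/- labelled EV cells (1.03 ± 0.40, adjusted p = 0.0568). Sqle, squalene epoxidase, differed by -0.01 to 0.43 over the 4 lines, with an SE of 0.30 in each. Idi1, which interconverts the 2 isoprene units of the pathway, had its lowest value in WT-labelled MUNC cells, -0.44 ± 0.61, where it stood at 183.5 and 209.4 CPM in DM and 391.1 and 141.9 CPM in GM. None of these differences passed the test.

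By count, 2 of the 7 members rose in MYOD-/- labelled MUNC cells, where 44.8% of all genes tested passed in either direction, and 2 rose in MYOD-/- labelled EV cells, where 43.2% did. None of the 7 passed in WT-labelled MUNC cells, against 39.8% of all genes, and 1 rose in WT-labelled EV cells, against 37.5%. In WT-labelled MUNC cells 1 member had an unadjusted p below 0.05 and DESeq2 called 0. In the edgeR fit without a replicate term, the share of members called was thus not above that of all genes in any line. The median fitted difference of the 7 was 0.71, 1.03, 0.32 and 0.68 in the same order of lines, beside 0.05, 0.08, 0.06 and 0.02 over all genes tested. Both DM libraries lay above both GM libraries for 5, 6, 2 and 6 members in that order, against 38.1%, 40.8%, 39.6% and 35.3% of all genes tested. The counts called depended on the fit. With a replicate term within each medium, chosen after seeing the data, they were 7, 7, 3 and 5 in that order. The shares of all genes in that fit are given with the alternatives at the end.

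Calls were lost when 1 library was left out, which leaves 1 library in a group and so weakens the test. A lost call therefore does not show that the library left out made it. Fdft1 lost its call in WT-labelled EV cells without any 1 of the 4 libraries (adjusted p = 0.0632 and 0.167 without GM replicate 1 and 2, 0.0686 and 0.0940 without DM replicate 1 and 2, edgeR). In MYOD-/- labelled EV cells Srebf2 lost its call without GM replicate 2 (0.0821), and Fdft1 without GM replicate 2 (0.118) or DM replicate 2 (0.0594). Srebf2 lost its call in MYOD-/- labelled MUNC cells without GM replicate 2 (0.135) or DM replicate 1 (0.0889). Fdft1 lost its call there without GM replicate 2 (0.244), DM replicate 1 (0.0937) or DM replicate 2 (0.133), and through the shared spread without WT-labelled EV DM replicate 1 (0.0521) or 2 (0.0522) or MYOD-/- labelled EV DM replicate 1 (0.0538). Without GM replicate 1 of the line itself, 5 members passed in MYOD-/- labelled EV cells (Srebf2, Hmgcs1, Fdft1, Lss and Insig1) and 4 in MYOD-/- labelled MUNC cells (Srebf2, Hmgcs1, Fdft1 and Insig1).

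**Figure D2:**
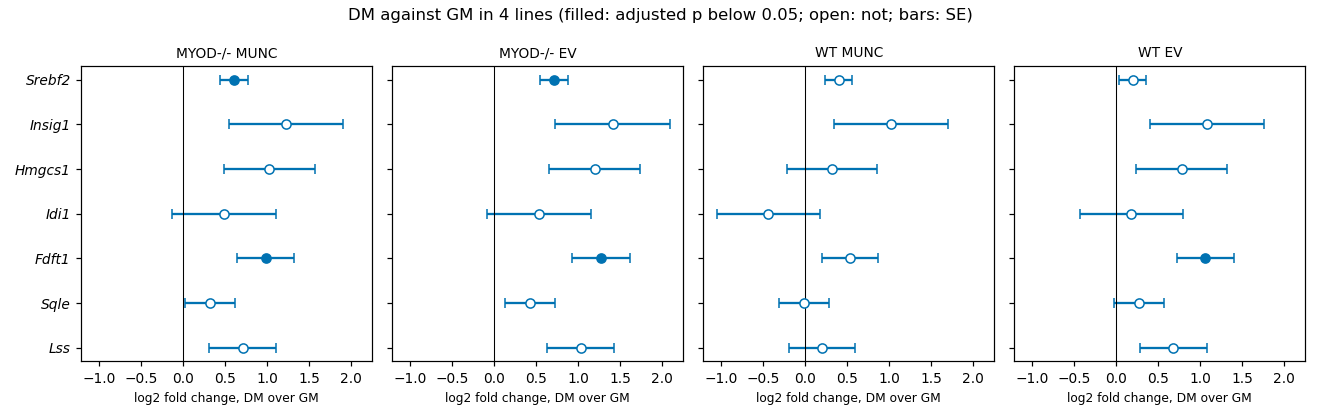
Fitted log2 fold change (DM over GM) of each gene in the 4 lines, with SE bars. Filled points passed the test at an adjusted p below 0.05. Fdft1 is filled in 3 lines and Srebf2 in both MYOD-/- labelled lines, and the bars of Insig1, Idi1 and Hmgcs1 are the widest.

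The 2 replicates of a GM group differed in the same direction for the whole list. In GM, replicate 1 was above replicate 2 for 7 of the 7 members in all 4 lines, a pattern shown by 28.5% of all genes tested. In DM this held for 0 of the 7, against 9.89% of all genes. Insig1 in GM was higher in replicate 1 by 1.65 (MYOD-/- labelled MUNC), 1.95 (MYOD-/- labelled EV), 1.46 (WT-labelled MUNC) and 1.14 (WT-labelled EV) on the log2 CPM scale. In DM the same differences for Insig1 were -0.28, -0.35, -0.49 and -0.00. Insig1 was the sole member with at least 1 log2 unit in all 4 lines, which 1.17% of all genes tested reached, and the sole member whose 4 replicate 1 GM libraries all lay above its 4 replicate 2 GM libraries (9.22% of all genes).

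Idi1 followed, with differences of 1.62, 1.47, 1.46 and 0.86 between the replicates in GM, in the same order of lines, and Hmgcs1 with 1.44, 1.41, 1.27 and 0.60. Those of Lss were 0.86, 1.00, 0.83 and 0.19, those of Fdft1 0.78, 0.95, 0.71 and 0.35, and those of Sqle 0.73, 0.74, 0.68 and 0.39. Srebf2 itself had the smallest differences, 0.37, 0.25, 0.22 and 0.12. The WT-labelled EV line had the smallest difference of the 4 lines for each gene. The median over the 7 genes was 0.86, 1.00, 0.83 and 0.39 in GM, a size that 9.26%, 7.87%, 7.0% and 16.5% of all genes tested reached or exceeded, and -0.28, -0.22, -0.32 and -0.00 in DM. Zrsr1 also separated the replicate numbers, in DM as well as in GM, and its part in these differences was not tested. The labels do not say what the replicate numbers stand for.

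**Figure D3:**
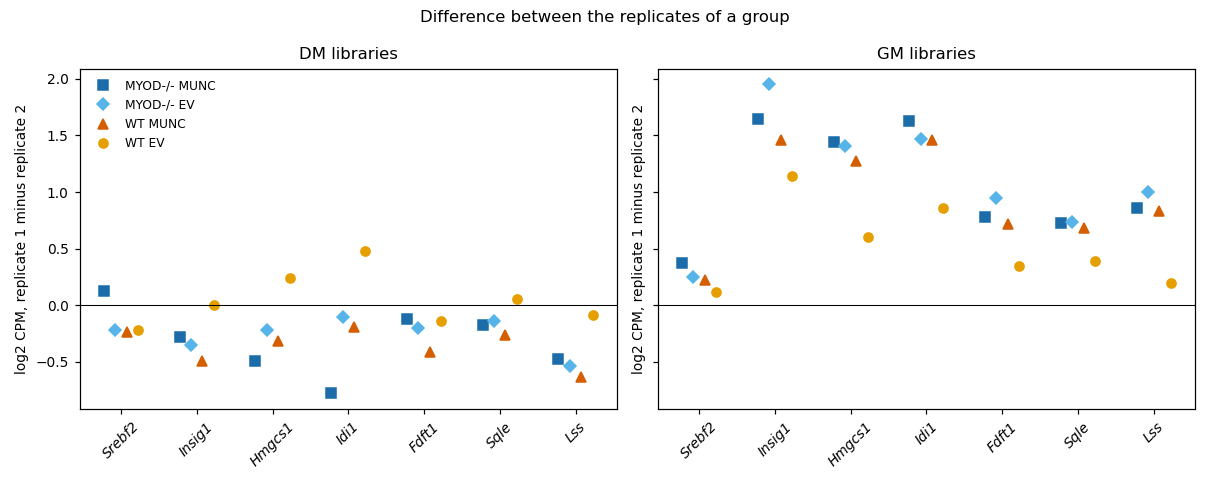
Difference in log2 CPM between replicate 1 and replicate 2 of each group, for the 7 genes, with DM libraries on the left and GM libraries on the right and 1 marker per line. All 28 GM points are above 0 and reach 1.95 for Insig1, while the DM points lie between -0.78 and 0.48.

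The size of the differentiation response of these genes depended on the replicate. A difference within a replicate takes both its DM and its GM library from that replicate. Within replicate 2, all 28 pairs of a member and a line were higher in DM than in GM, with a median difference of 1.18 and a range of 0.36 to 2.86 on the log2 CPM scale. Within replicate 1, 20 of the 28 were higher and 8 lower, with a median of 0.18 and a range of -1.09 to 0.83. Of all pairs of a tested gene and a line 52.7% were higher in DM within replicate 2 and 53.4% within replicate 1. Pairs of the same line share their libraries and are not separate observations. All 7 members were higher in DM in all 4 lines within replicate 2, against 31.6% of all genes tested, and 2 of them, Srebf2 and Insig1, within replicate 1, against 34.9%. Over all genes the median difference was 0.05 in replicate 2 and 0.06 in replicate 1. Insig1 in MYOD-/- labelled EV cells differed by 0.55 within replicate 1 and by 2.86 within replicate 2, and Hmgcs1 in the same line by 0.54 and 2.17. Idi1 in WT-labelled MUNC cells was 1.09 lower in DM within replicate 1 and 0.56 higher within replicate 2. Fdft1 was at least 0.58 higher in DM within both replicates of the 3 lines in which it passed. When the GM libraries of replicate 2 alone stood for GM, a choice made after the data were seen and in which a lone library is assumed to vary like the other groups, 7 members passed in MYOD-/- labelled MUNC cells, 7 in MYOD-/- labelled EV cells, 3 in WT-labelled MUNC cells and 3 in WT-labelled EV cells. Of all genes 46.3%, 43.6%, 36.5% and 35.5% passed in that fit. With the GM libraries of replicate 1 alone, 1 member passed in each line, a rise of Fdft1 in 3 lines and a fall of Idi1 in WT-labelled MUNC cells, against 36.6%, 34.4%, 35.6% and 32.1% of all genes in the same order. Srebf2 then lost its calls in MYOD-/- labelled EV (adjusted p = 0.0590, edgeR) and MYOD-/- labelled MUNC cells (0.144).

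**Figure D4:**
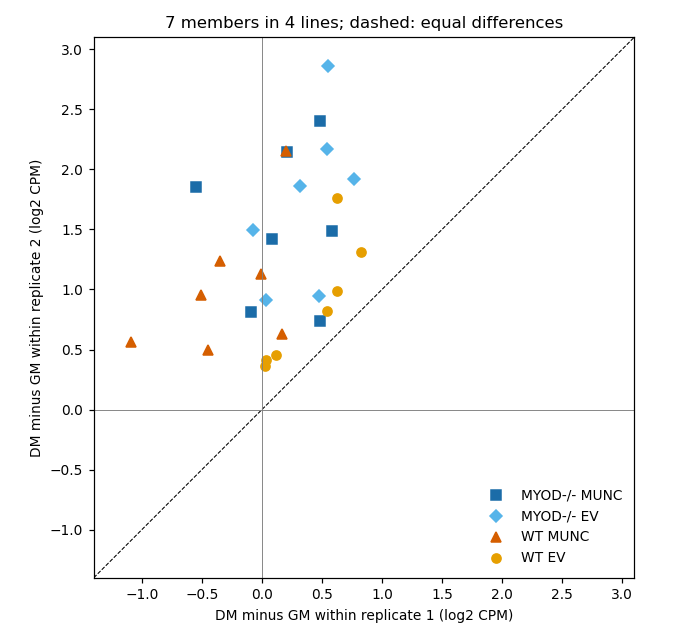
DM minus GM difference in log2 CPM within replicate 1 (horizontal) and within replicate 2 (vertical), 1 point per gene and line. The dashed line marks equal differences. All 28 points lie above 0 on the vertical axis and above the dashed line, 8 lie below 0 on the horizontal axis, and the point farthest up is Insig1 in MYOD-/- labelled EV cells (2.86).

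Srebf2 was higher with the MUNC vector than with EV in differentiating WT-labelled cells, and no other member passed in any comparison of MUNC with EV. In these cells Srebf2 stood at 470.0 and 555.4 CPM with MUNC, against 284.9 and 331.5 CPM with EV (0.73 ± 0.16, adjusted p = 0.0056), a difference of 0.72 within replicate 1 and 0.74 within replicate 2. The call was lost without MUNC DM replicate 2 (adjusted p = 0.0549, edgeR). The other 6 members also had both MUNC libraries above both EV libraries, so that all 7 did, as did 35.0% of all genes tested, but their fitted differences of 0.34 to 0.97 did not pass (adjusted p = 0.131 to 0.515). Hmgcs1, the largest of them, stood at 512.8 and 639.3 CPM with MUNC and 318.5 and 269.5 CPM with EV (0.97 ± 0.54, adjusted p = 0.194). Of all genes tested 33.3% passed in this comparison, against 1 of 7 members. All 5 interferon genes were lower with MUNC here (median log2 fold change -5.45), 4 of the 5 muscle genes were higher (median 3.98), and 2 of 3 leukocyte markers tested, Cd68 and Lyz2, were lower, in libraries where the 4 leukocyte markers summed to at most 5.16 TPM. Irf7, for example, stood at 2.16 and 1.68 CPM with MUNC and 533.7 and 599.0 CPM with EV. The part of these genes in the difference of Srebf2 was not tested.

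In proliferating WT-labelled cells no member passed in the fit without a replicate term, against 13.8% of all genes tested, although 5 had an unadjusted p below 0.05 and DESeq2 called 4 (Srebf2, Hmgcs1, Sqle and Lss). Lss stood at 206.1 and 116.1 CPM with MUNC, against 69.45 and 60.76 CPM with EV (1.31 ± 0.40, adjusted p = 0.0529). Its interval ran from 0.42 to 2.19. Srebf2 stood at 418.5 and 358.8 CPM with MUNC and 280.0 and 258.2 CPM with EV (0.53 ± 0.16, adjusted p = 0.0544). Srebf2 and Lss both passed when any 1 of the 4 MYOD-/- labelled GM libraries was left out, and Srebf2 without either WT-labelled EV DM library. The largest fitted difference was that of Hmgcs1, at 653.9 and 270.7 CPM with MUNC and 206.0 and 135.8 CPM with EV (1.44 ± 0.55, adjusted p = 0.114). Both MUNC libraries lay above both EV libraries for 6 of the 7, all but Insig1, against 24.2% of all genes tested. The median fitted difference of the 7 was 0.87 in proliferating and 0.71 in differentiating cells, beside -0.03 and -0.00 over all genes.

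In MYOD-/- labelled cells, where the vector's RNA was less abundant, no gene of any kind passed for MUNC against EV by edgeR, 0.0% of those tested in DM and 0.0% in GM. MUNC itself (Gm45923) did not pass either. It stood at 43.0 and 50.4 CPM with the vector and 12.4 and 2.23 CPM with EV in DM. In GM it stood at 132 and 106 CPM against 12.4 and 1.3 CPM. The lack of calls therefore does not show that the vector had no effect. At an unadjusted p below 0.05 there were 152 genes in DM and 191 in GM, none a member, and DESeq2 called 4 genes in DM (3 higher and 1 lower) and 0 in GM. All 7 members had negative fitted values in both media, from -0.43 to -0.14 in DM and from -0.18 to -0.03 in GM. Srebf2 stood at 467.3 and 428.7 CPM with MUNC and 455.8 and 532.0 CPM with EV in DM (-0.14 ± 0.16, 95% interval -0.50 to 0.22). Hmgcs1, Fdft1 and Sqle had both MUNC libraries below both EV libraries in DM, against 10.1% of all genes tested, and no member did in GM.

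The genotype labels were compared at the same vector and medium, MYOD-/- labelled against WT-labelled. In differentiating EV cells Srebf2 was higher in the MYOD-/- labelled libraries, at 455.8 and 532.0 CPM against 284.9 and 331.5 CPM (0.68 ± 0.16, adjusted p = 0.00969). The difference was 0.68 within each replicate number, and the call was lost without WT-labelled DM replicate 1 (adjusted p = 0.0778, edgeR) or MYOD-/- labelled DM replicate 2 (0.0833). All 7 members had both MYOD-/- labelled libraries above both WT-labelled ones, against 34.3% of all genes tested, and the other 6 did not pass, with fitted differences of 0.27 to 0.81 (adjusted p = 0.146 to 0.593). Lss had the largest, at 148.8 and 216.2 CPM in MYOD-/- labelled and 101.0 and 107.4 CPM in WT-labelled cells (0.81 ± 0.40). Of all genes 31.4% passed in this comparison. Of the interferon genes 3 of 5 were lower in the MYOD-/- labelled libraries (median of the 5 -0.75) and of the muscle genes 4 of 5 were higher (median 4.60), and their part was not tested. The comparison shares its WT-labelled EV libraries with the comparison of MUNC and EV in WT-labelled DM cells, so the 2 rises of Srebf2 are not independent. In proliferating EV cells none of the 7 passed, at an unadjusted p below 0.05 or by DESeq2 either, against 10.4% of all genes, and the 2 groups overlapped for each.

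In MUNC cells all 7 fitted values were negative. In DM they ranged from -0.63 to -0.19 and in GM from -1.34 to -0.40, and none passed in the fit without a replicate term (adjusted p = 0.440 to 0.751 in DM and 0.146 to 0.638 in GM), against 22.7% and 9.99% of all genes tested. In DM all 5 interferon genes were higher in the MYOD-/- labelled libraries (median 5.36). In GM 4 members had an unadjusted p below 0.05, in DM none did, and DESeq2 called 0 in both. Hmgcs1 in GM stood at 267.9 and 98.46 CPM in MYOD-/- labelled cells, against 653.9 and 270.7 CPM in WT-labelled cells (-1.34 ± 0.55, adjusted p = 0.157), and its difference was -1.29 within replicate 1 and -1.46 within replicate 2. It passed without MYOD-/- labelled MUNC GM replicate 1. Both MYOD-/- labelled libraries lay below both WT-labelled ones for 4 members in DM (Srebf2, Hmgcs1, Fdft1 and Sqle), against 33.5% of all genes, and for 4 in GM (Srebf2, Hmgcs1, Fdft1 and Lss), against 22.9%.

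**Figure D5:**
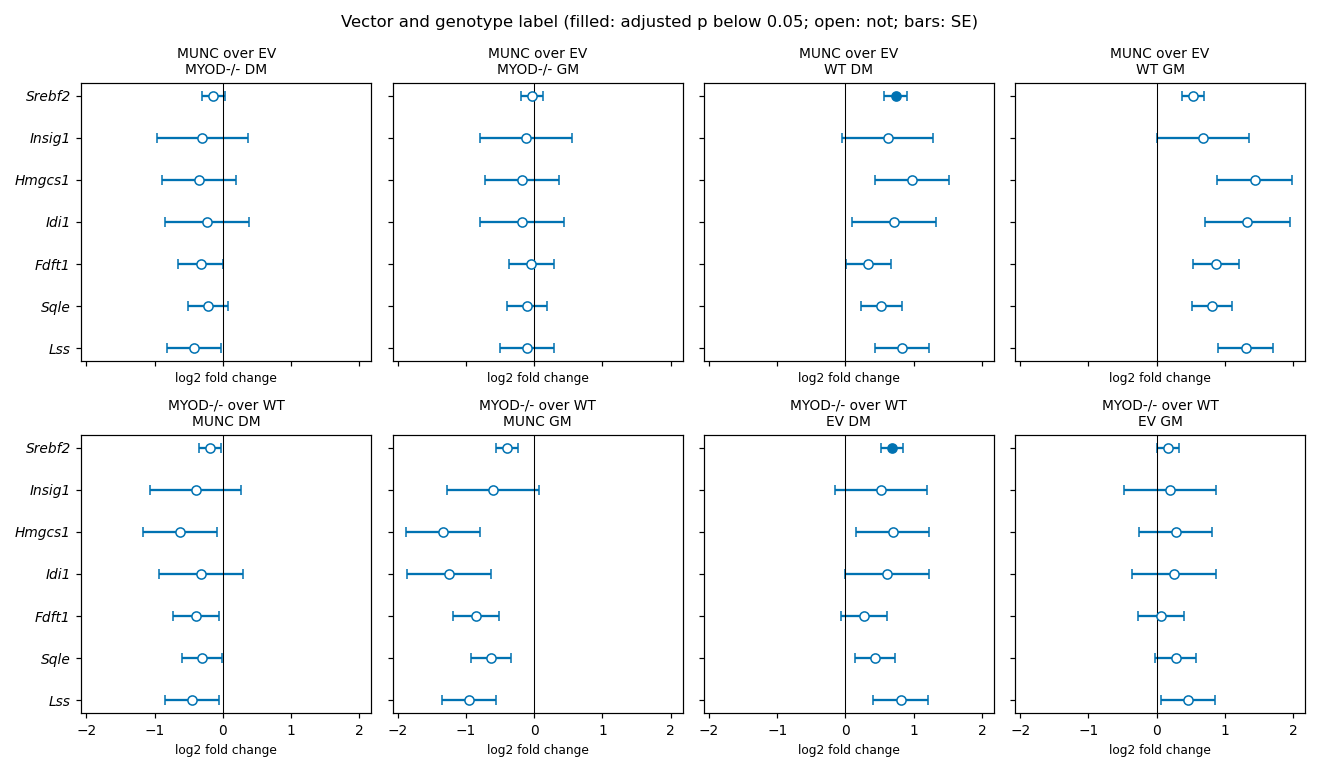
Fitted log2 fold change of each gene with SE bars, for MUNC over EV (top row) and MYOD-/- labelled over WT-labelled cells (bottom row). Filled points passed at an adjusted p below 0.05. The 2 filled points are both Srebf2 in DM, for MUNC over EV in WT-labelled cells (0.73) and for the label in EV cells (0.68).

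Whether the differentiation response differed between lines was tested as an interaction, and no member passed in any of 4 tests. Between the genotype labels, the response in EV cells had its smallest adjusted p at Srebf2 (0.51 ± 0.23 higher in MYOD-/- labelled cells, adjusted p = 0.280), against 2.58% of all genes passing. In MUNC cells the smallest was 0.778 (1.38% of all genes). Between MUNC and EV it was 1.0 in MYOD-/- labelled cells (0.0% of all genes; 114 at an unadjusted p below 0.05 and 0 by DESeq2) and 0.656 in WT-labelled cells (3.33%). Srebf2 in EV cells was the sole member with an unadjusted p below 0.05 in any of the 4 by edgeR, and DESeq2 called 0 members in each. The rise of Srebf2 in MYOD-/- labelled EV cells and its missed threshold in WT-labelled EV cells are thus not shown to differ.

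A further 14 enzymes of the pathway were listed, among them Acat2, Mvk, Mvd, Fdps, Cyp51, Tm7sf2, Nsdhl, Hsd17b7 and Ebp, and the list is not exhaustive. Under differentiation 2, 3, 1 and 1 of them rose in MYOD-/- labelled MUNC, MYOD-/- labelled EV, WT-labelled MUNC and WT-labelled EV cells, and none fell, where 44.8%, 43.2%, 39.8% and 37.5% of all genes passed. These counts ranged from 1 to 6, 1 to 6, 1 to 1 and 0 to 1 when 1 library was left out. The 6 were reached without GM replicate 1 of the line, and in MYOD-/- labelled MUNC cells the 1 without GM replicate 2 or DM replicate 2. Without GM replicate 2 or DM replicate 2 the count was also 1 in MYOD-/- labelled EV cells, and 5 passed there without MYOD-/- labelled MUNC GM replicate 1. Tm7sf2, a sterol C14 reductase, rose in all 4 lines. In MYOD-/- labelled EV cells it stood at 14.45 and 22.17 CPM in DM, against 4.52 and 2.13 CPM in GM (2.46 ± 0.44, adjusted p = 0.00104). Its rise was 1.93 ± 0.43 in MYOD-/- labelled MUNC cells (adjusted p = 0.00375), 2.71 ± 0.43 in WT-labelled MUNC cells (adjusted p = 0.000617) and 1.49 ± 0.42 in WT-labelled EV cells (adjusted p = 0.0161). The last was lost without WT-labelled EV DM replicate 2 (adjusted p = 0.0748, edgeR), GM replicate 1 (0.0536) or GM replicate 2 (0.106). Hsd17b7, a ketosteroid reductase of the pathway, rose in both MYOD-/- labelled lines (1.26 ± 0.36 with MUNC and 1.23 ± 0.36 with EV), and Mvd, mevalonate diphosphate decarboxylase, in the EV line (1.33 ± 0.40). The call of Mvd was lost without DM replicate 2 (0.165) or GM replicate 2 (0.177), those of Hsd17b7 without GM replicate 2 (0.117 with MUNC and 0.163 with EV), DM replicate 2 (0.0869 and 0.0728) and, with EV, DM replicate 1 (0.0555).

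These enzymes differed between the GM replicates as the 7 members did. In GM, 13 of the 14 were higher in replicate 1 in all 4 lines, and in DM 0 were, where 28.5% (GM) and 9.89% (DM) of all genes tested were. The median over the 14 of the mean difference was 0.67 in GM and -0.26 in DM, beside 0.72 and -0.20 for the members. Of 10 genes of fatty acid synthesis, which SREBP1 is best known to control, 9 were higher in replicate 1 in all GM lines and 0 in DM, with a median of 0.72 in GM and -0.22 in DM. Of 6 genes of sterol efflux, esterification and their LXR receptors 0 were higher in replicate 1 in all GM lines. Of 10 genes of the isoprenoid branch, which draws on the same intermediates, 4 were. Outside lipid metabolism, 3 of the 5 interferon genes (median 0.72) and 3 of the 5 muscle genes (median 0.93) were also higher in replicate 1 in all GM lines, and 1 of 5 cell cycle genes was (median 0.09). Under differentiation, 0, 1, 0 and 0 of the fatty acid genes rose in MYOD-/- labelled MUNC, MYOD-/- labelled EV, WT-labelled MUNC and WT-labelled EV cells, Acly in the second line (0.56 ± 0.18, adjusted p = 0.0265), and 1, Me1, fell in the last (-0.72 ± 0.19, adjusted p = 0.0118). Both calls were lost without 1 or more libraries (highest adjusted p = 0.236 for Acly and 0.1 for Me1, edgeR). Of the isoprenoid genes 2, 1, 1 and 2 rose and 4, 3, 3 and 2 fell in that order.

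Ebp, the sterol isomerase, passed between the labels in MUNC cells, where no member did. It was lower in MYOD-/- labelled MUNC cells than in WT-labelled MUNC cells, at 31.01 and 26.71 against 49.59 and 64.67 CPM in DM (-0.99 ± 0.14, adjusted p = 0.00064) and at 35.77 and 33.90 against 62.08 and 58.29 CPM in GM (-0.79 ± 0.14, adjusted p = 0.00545). In GM no other of the 14 passed with all libraries, where 9.99% of all genes did, and 4 passed without MYOD-/- labelled MUNC GM replicate 1. In DM Tm7sf2 passed as well (-1.72 ± 0.41, adjusted p = 0.012), where 22.7% of all genes did. The call of Tm7sf2 was lost without MYOD-/- labelled MUNC DM replicate 1 (adjusted p = 0.0855, edgeR) or 2 (0.0584) or WT-labelled MUNC DM replicate 2 (0.146). For MUNC over EV in WT-labelled cells, 2 of the 14 rose in DM, Tm7sf2 (1.60 ± 0.41, adjusted p = 0.0118) and Ebp (0.54 ± 0.14, adjusted p = 0.0135), and 1 in GM, Hsd17b7 (1.40 ± 0.36, adjusted p = 0.0248), where 33.3% and 13.8% of all genes passed. Each of these 3 calls was lost without 1 or more libraries of its own comparison, with adjusted p of 0.142 and 0.152 for Tm7sf2 and Ebp without WT-labelled MUNC DM replicate 2 and of 0.165 for Hsd17b7 without WT-labelled MUNC GM replicate 1. For MUNC over EV in MYOD-/- labelled cells 0 of the 14 passed in either medium.

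A list of 9 genes held Srebf1, which encodes SREBP1, and genes that process or retain SREBPs or degrade their regulators. Under differentiation 5 of the 9 rose in MYOD-/- labelled MUNC, 4 in MYOD-/- labelled EV and 4 in WT-labelled MUNC cells. Srebf1 was among those of the WT-labelled MUNC line (1.20 ± 0.28, adjusted p = 0.00533), a call lost without replicate 2 of either medium. In WT-labelled EV cells 3 rose and 1, Ube2g2, fell. These counts stand near the shares of all genes that passed in either direction, 44.8%, 43.2%, 39.8% and 37.5%. Mbtps1 and Mbtps2, the proteases that release SREBP2, and Rnf139, a ubiquitin ligase of the endoplasmic reticulum, rose in all 4 lines. Mbtps1 rose by 0.82 ± 0.12 in MYOD-/- labelled MUNC cells (adjusted p = 0.000322), 0.67 ± 0.12 in MYOD-/- labelled EV cells (adjusted p = 0.00109), 0.68 ± 0.12 in WT-labelled MUNC cells (adjusted p = 0.00111) and 0.43 ± 0.12 in WT-labelled EV cells (adjusted p = 0.0151). The last was lost without WT-labelled EV DM replicate 1 (adjusted p = 0.0875, edgeR) or GM replicate 2 (0.0955), while the other 3 held without any 1 library. Calls of Rnf139 were lost in every line without at least 1 library (highest adjusted p = 0.0511 in MYOD-/- labelled MUNC, 0.137 in MYOD-/- labelled EV, 0.231 in WT-labelled MUNC and 0.208 in WT-labelled EV cells), and those of Mbtps2 in both WT-labelled lines (0.158 with MUNC and 0.177 with EV). Mbtps1 was also higher with MUNC than with EV in differentiating WT-labelled cells (0.79 ± 0.12, adjusted p = 0.000511) and higher in MYOD-/- labelled than in WT-labelled differentiating EV cells (0.72 ± 0.12, adjusted p = 0.00115), as Srebf2 was. It also passed in the same 2 comparisons in GM, where Srebf2 did not (0.54 ± 0.12, adjusted p = 0.0119, and 0.48 ± 0.12, adjusted p = 0.0265), and both GM calls were lost without some 1 library (highest adjusted p = 0.0838 and 0.157).

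Of 5 genes of lipoprotein uptake 4 were tested, Vldlr being at or below 0.0302 TPM in every library. Under differentiation 1, 2, 1 and 1 of the 4 rose in MYOD-/- labelled MUNC, MYOD-/- labelled EV, WT-labelled MUNC and WT-labelled EV cells. In each line 2 fell. Of all genes 44.8%, 43.2%, 39.8% and 37.5% passed in that order. Lrp8, a lipoprotein receptor, stood between 9.66 and 20.1 CPM in the 8 DM libraries, against 71.7 to 106 CPM in the 8 GM libraries. It fell in all 4 lines under differentiation, by 2.84, 2.29, 2.73 and 2.34 on the log2 scale (MYOD-/- labelled MUNC and EV, WT-labelled MUNC and EV; SE 0.28 in each, adjusted p at most 9.27e-05). Scarb1, the receptor for high-density lipoprotein, also fell in each line, by 1.06, 0.88, 0.79 and 0.74 (SE 0.17 in each), a call lost in WT-labelled EV cells without GM replicate 2 (adjusted p = 0.0558, edgeR). Mylip, a ubiquitin ligase that degrades lipoprotein receptors and is induced by LXR, stood between 19.8 and 55.7 CPM in DM, against 2.98 to 8.06 CPM in GM. It rose in each line, by 2.31 ± 0.38, 2.50 ± 0.39, 2.88 ± 0.39 and 1.99 ± 0.38 in the same order (adjusted p at most 0.00192), and kept these calls with any 1 library left out. Nr1h2, which encodes an LXR receptor, rose in each line as well, by 0.63 to 0.94, with calls lost without 1 library in each line but WT-labelled MUNC (highest adjusted p = 0.0696, edgeR). Lrp1, the other receptor tested, rose under differentiation in MYOD-/- labelled EV cells alone (1.21 ± 0.37, adjusted p = 0.0223, edgeR). That call was lost without any 1 of the 4 libraries compared (highest adjusted p = 0.137). In differentiating WT-labelled cells Lrp1 was higher with MUNC than with EV (2.08 ± 0.38, adjusted p = 0.00185). Lrp1 was also higher in MYOD-/- labelled than in WT-labelled differentiating EV cells (1.67 ± 0.38, adjusted p = 0.00692), a call lost without WT-labelled EV DM replicate 2. Both comparisons share the WT-labelled EV DM libraries and are not independent.

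Among 10135 genes with a mean of at least 5 CPM, those most like the 7 members were sought by the Pearson correlation of log2 CPM with the mean of the members' standardised values, taken separately over 8 GM and 8 DM libraries, and ranked by the lower of both. The 6 nearest were Nsdhl (0.974 in GM and 0.969 in DM), Mvd (0.985 and 0.937), Dbi (0.947 and 0.929), Acat2 (0.926 and 0.909), Sync (0.897 and 0.915) and Lpcat3 (0.916 and 0.896). Nsdhl, Mvd and Acat2 are enzymes of sterol synthesis from the listed 14. Nsdhl, a sterol dehydrogenase, stood at 98.8 and 132 CPM in DM and 73.8 and 32.6 CPM in GM in MYOD-/- labelled MUNC cells, and at 97.0 and 96.5 CPM in DM and 67.3 and 46.8 CPM in GM in WT-labelled EV cells. Between members, pairwise correlations ranged from 0.755 to 0.994 over the GM libraries (median 0.957) and from 0.620 to 0.990 over the DM libraries (median 0.875). The libraries behind these values share replicate numbers and pairs of groups, so the correlations describe these libraries only.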

How the data were processed

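Poly(A) RNA from 16 C2C12 libraries was sequenced as paired reads of 75 bases, per the labels' protocols. The deposited files give, per RefSeq transcript, an estimated count, a TPM value and an effective length. The submitters' processing notes name bcl2fastq, kallisto and mm10, with versions not given in the sources used here. Estimated counts and TPM were summed per symbol. Of 35818 transcripts, 35487 were matched through RefSeq (GRCm38.p6) and 193 through GENCODE, and the 138 left (0.280% to 0.941% of counts) were not used.

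Summed estimated counts were rounded to whole numbers and fitted once over all 16 libraries with edgeR 4.0.16 (R 4.3.3), using TMM scaling, its expression filter (14972 genes) and the quasi-likelihood test with Benjamini-Hochberg adjustment over those genes at 0.05. The fit had 8 residual degrees of freedom and gave 16 comparisons, 4 of them interactions. Log2 CPM used a prior count of 2. Alternatives used DESeq2 1.42.0, limma 3.58.1 on log2(TPM + 1) or log2(TPM + 0.1), other filters and offsets, a replicate term and each library left out. The fit was tested on 1 simulated set, with genes changed between DM and GM in WT-labelled EV cells. It recovered 60 of 100 genes changed 2-fold and 94 of 100 changed 4-fold. Of its 161 calls 7 were false. Changes of 2-fold were thus often missed in that set. All other genes had the same mean in every group there, and no difference between replicate numbers was simulated. In the data 37.5% of genes passed in this comparison, so the shares recovered or false need not hold for the data.

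The members, the other gene lists and the tests were chosen with earlier results of these data known. From each other list, genes were named by a rule of up to 4 passing genes with the largest change and a mean of at least 5 CPM. The promoter windows are the 250 bases before each start in the RefSeq table. Some genes of the lists are not reported here by name.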

Additional observations from a re-analysis of the deposited data

How the results depend on the processing

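No value of a member that passed with all libraries in edgeR changed sign under any alternative, and DESeq2 size factors or the effective length offset kept every count of members called within 1.5 times. Counts moved as follows, and the causes were not tested. Under differentiation, WT-labelled MUNC cells had 0 members called, against 1 with a filter of 5 CPM, 1 with limma on log2(TPM + 1) and 1 with log2(TPM + 0.1). MYOD-/- labelled EV cells had 2, against 5 with either limma fit. For MUNC over EV in WT-labelled GM cells, 0 became 4 with DESeq2, 1 with no filter on low counts, 2 with the 5 CPM filter and 1 with either limma fit. On the TPM scale the median of all genes shifted upward under differentiation, to 0.19 in MYOD-/- labelled MUNC (0.05 in edgeR), 0.19 in MYOD-/- labelled EV (0.08), 0.13 in WT-labelled MUNC (0.06) and 0.09 in WT-labelled EV cells (0.02). The split of all genes called higher and lower then became 5251 and 1977 (3651 and 3056 in edgeR), 5125 and 1947 (3522 and 2948), 4195 and 1921 (3075 and 2881) and 3712 and 1951 (2876 and 2743).

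Replicate differences correlated between groups at 0.508 to 0.712 over the 6 pairs of GM groups, all above 0.1, at 0.0955 to 0.374 over the 6 pairs of DM groups, 5 above 0.1, and at -0.0126 to 0.712 over all 28 pairs, 23 above 0.1. The data thus hint at shared replicate sets, in GM above all. The samples were not treated as paired in the main fit, because the labels do not say that a number marks a shared batch. Each comparison holds 2 pairs, but a replicate term can be fitted over all 16 libraries. If the numbers do mark shared sets, the main fit counts the difference between them as spread. With a replicate block, 5 members passed under differentiation in MYOD-/- labelled EV cells (51.2% of all genes) and 2 for MUNC over EV in WT-labelled GM cells (19.9%). The following alternatives were chosen after seeing the data. With a replicate block within each medium, 7 members rose under differentiation in MYOD-/- labelled MUNC cells (58.5% of all genes passed), 7 in MYOD-/- labelled EV (56.6%), 3 in WT-labelled MUNC (53.8%) and 5 in WT-labelled EV cells (52.5%). In MYOD-/- labelled against WT-labelled cells 5 were then higher in EV DM (47.4%), 7 lower in MUNC GM (23.1%) and 3 lower in MUNC DM (38.9%), and with MUNC in WT-labelled cells 7 were higher in GM (27.3%) and 6 in DM (49.3%).

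With 1 GM replicate alone, each GM group is a lone library, so only sizes within a replicate are given here, as medians over the 7 members. For MUNC over EV in GM the median was 1.02 within replicate 1 and 0.65 within replicate 2 in WT-labelled cells. In MYOD-/- labelled cells it was -0.14 and -0.10. Between the labels in GM it was -0.82 and -0.89 in MUNC cells, and 0.42 and -0.16 in EV cells. Leaving out each library in turn gave, under differentiation, 0 to 4 members in MYOD-/- labelled MUNC, 0 to 5 in MYOD-/- labelled EV, 0 to 0 in WT-labelled MUNC and 0 to 1 in WT-labelled EV cells. It gave 0 to 1 between the labels in EV DM and 0 to 1 in MUNC GM, and for MUNC over EV in WT-labelled cells 0 to 2 in GM and 0 to 1 in DM.

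With 2 libraries a group, a missed threshold does not show that a gene did not change. The members' counts, 1765 or more, leave counting error small beside the difference between replicates. The groups hold 1 line per genotype label and vector, so line and label cannot be told apart.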
